A study of Mus musculus with 21 samples.

Results

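Transcript counts of 10 genes, among the 30733 genes of the table, were followed through Stag2 knockout (KO) and wild-type (WT) mouse marrow progenitors. The genes were chosen by name as chromatin regulators, and metabolic enzymes that act on chromatin, whose human counterparts are recurrently mutated in myeloid neoplasms: Dnmt3a, Tet2, Idh1, Idh2, Ezh2, Asxl1, Asxl2, Bcor, Kdm6a and Phf6. RNA was sequenced from 21 libraries of 3 populations sorted from lineage-depleted marrow. LSK cells hold stem and multipotent progenitors (Stag2 KO, n = 3, and WT, n = 4), GMP are granulocyte and monocyte progenitors (Stag2 KO, n = 4, and WT, n = 3), and CFU-E are erythroid progenitors (Stag2 KO, n = 4, and WT, n = 3). No source used here gives the Cre driver, strain, age or number of animals, or how the KO allele was made. Full transcripts were amplified for LSK (SMARTer) and 3′ ends were sequenced for GMP and CFU-E after SMART-Seq2 amplification, so levels are compared between CFU-E and GMP and not with LSK.

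As background, Dnmt3a writes new methyl groups on cytosine in DNA, and Tet2 oxidises them with alpha-ketoglutarate as a co-substrate, which Idh1 makes in the cytosol and Idh2 in mitochondria. Ezh2 is the catalytic subunit of Polycomb repressive complex PRC2, Kdm6a removes the methyl mark that Ezh2 writes on histone H3, Asxl1 and Asxl2 are alternative partners of the histone deubiquitinase Bap1 in the PR-DUB complex, Bcor is the scaffold of the variant Polycomb complex PRC1.1, and Phf6 is a PHD-finger protein that binds the NuRD complex. Their human counterparts, like the cohesin subunit STAG2, are mutated in myelodysplastic syndrome and acute myeloid leukaemia.

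LSK libraries held 22813333 to 32196233 counts, and CFU-E libraries 3654667 to 5550165. GMP libraries were shallower in KO (1250683 to 3471881 counts) than in WT (3732769 to 4401993 counts). Levels are CPM, the gene's count relative to the total of its library, adjusted by TMM within the libraries compared, and a gene was called at an edgeR adjusted p under 0.05. All 10 genes passed the filter on low counts in every comparison. The targeted gene was called lower in LSK, where Stag2 averaged 72.3 ± 6.61 CPM in KO and 166.1 ± 16.9 in WT (SD, n = 3 and 4; log2 fold change -1.20 ± 0.128 SE, adjusted p = 0.0270), and in CFU-E, where it averaged 64.2 ± 15.7 CPM in KO and 140.7 ± 17.7 in WT (n = 4 and 3; -1.13 ± 0.205, adjusted p = 0.0143). In GMP, Stag2 ranged from 80.9 to 150.2 CPM in libraries labelled KO and from 98.3 to 200.5 in WT libraries, the groups overlapped, and the call was missed (-0.47 ± 0.271, adjusted p = 0.360), so directions in GMP are those of the libraries labelled KO. The LSK call was lost without LSK KO 1, KO 2, KO 3, WT 3 or WT 4 (adjusted p between 0.0657 and 0.151), and the CFU-E call without CFU-E WT 3 (0.703), although the log2 fold change stayed between -1.27 and -0.85 in these fits. The 10 stem cell markers summed to 2129 to 3071 CPM in LSK, the 10 erythroid progenitor markers to 6615 to 8593 CPM in CFU-E, and the 10 granulocyte and monocyte progenitor markers to 22164 to 55727 CPM in GMP, where 10 late neutrophil markers were higher still at 74614 to 206886 CPM. LSK libraries carried the female pattern of Xist and Y-linked transcripts and GMP and CFU-E libraries the male one, in KO and WT alike.

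In WT CFU-E against WT GMP, 7 of the 10 genes were called by edgeR: Idh1, Idh2, Tet2 and Dnmt3a were lower in CFU-E, and Ezh2, Asxl1 and Phf6 were higher. The populations differ widely, with 52.4% of the 10329 genes tested called, 25.0% higher and 27.3% lower. Libraries of the 2 populations did not overlap for 8 of the 10 genes, where 59.8% of all genes did not, and both counts are to be read against those shares. Their median log2 difference was 0.23 beside 0.032 for all genes. In bulk libraries, fewer cells of a type and less RNA per cell cannot be told apart.

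Idh1, the cytosolic NADP-dependent isocitrate dehydrogenase, had 6.63, 5.78 and 4.81 CPM in the 3 CFU-E WT libraries, against 184.6, 147.5 and 98.8 CPM in the 3 GMP WT libraries. It was 24.8-fold lower in CFU-E (log2 difference -4.63 ± 0.281 SE, edgeR adjusted p = 1.64e-11), the widest gap among the 10 genes. Idh2, its mitochondrial counterpart, had 101.6, 107.1 and 98.3 CPM in CFU-E WT and 257.3, 246.2 and 330.8 CPM in GMP WT. Both isocitrate dehydrogenases were thus lower in every CFU-E WT library than in any GMP WT library, Idh2 by 2.72-fold (-1.44 ± 0.196, edgeR adjusted p = 2.80e-06). Per count of Idh2, CFU-E WT libraries held 0.0561 ± 0.00835 counts of Idh1 and GMP WT libraries 0.538 ± 0.216 (SD, n = 3 each).

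Tet2, the methylcytosine dioxygenase, had 8.19, 4.93 and 6.87 CPM in CFU-E WT libraries and 33.0, 20.4 and 21.2 CPM in GMP WT libraries. It was 3.75-fold lower in CFU-E (-1.91 ± 0.307, edgeR adjusted p = 2.41e-05). Dnmt3a, the de novo DNA methyltransferase, had 33.2, 43.7 and 36.2 CPM in CFU-E WT and 78.5, 78.0 and 65.9 CPM in GMP WT, a 1.97-fold lower level in CFU-E (-0.97 ± 0.211, edgeR adjusted p = 0.000574). The enzyme that adds the methyl group and the one that oxidises it were both lower in each CFU-E WT library.

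Ezh2, the Polycomb methyltransferase, went the other way, with 434.9, 429.4 and 532.4 CPM in CFU-E WT and 377.2, 270.4 and 209.6 CPM in GMP WT (0.70 ± 0.218, edgeR adjusted p = 0.0101). Asxl1 had 123.5, 132.9 and 139.1 CPM in CFU-E WT and 86.9, 91.7 and 87.4 CPM in GMP WT (0.57 ± 0.189, edgeR adjusted p = 0.0154). Phf6 had 59.1, 51.3 and 56.1 CPM in CFU-E WT and 50.3, 29.3 and 26.1 CPM in GMP WT (0.65 ± 0.245, edgeR adjusted p = 0.0313). The higher levels came to 1.63-fold for Ezh2, 1.49-fold for Asxl1 and 1.57-fold for Phf6, and their calls depended on single libraries. Among flow cell A libraries alone, that is without CFU-E WT 3, the adjusted p was 0.0531 for Ezh2, 0.0606 for Asxl1 and 0.0635 for Phf6. Without GMP WT 2 it was 0.0535, 0.0537 and 0.142. Asxl1 also lost the call without CFU-E WT 2 (0.0523), and Phf6 without CFU-E WT 1 (0.0871), without GMP WT 3 (0.101) and in DESeq2 (0.0530).

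The other 3 genes were not called between the populations. Asxl2 averaged 93.6 ± 14.7 CPM in CFU-E WT and 82.4 ± 21.5 in GMP WT (log2 difference 0.18, 95% interval -0.28 to 0.64, edgeR adjusted p = 0.513). Kdm6a, the X-linked demethylase, averaged 30.2 ± 8.04 CPM in CFU-E WT and 24.6 ± 9.70 in GMP WT (0.28, interval -0.33 to 0.89, edgeR adjusted p = 0.436). Bcor averaged 31.95 ± 5.20 CPM in CFU-E WT and 23.6 ± 2.07 in GMP WT, with no overlap between libraries, yet missed the threshold (0.44, interval -0.06 to 0.94, edgeR adjusted p = 0.135).

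**Figure D1:**
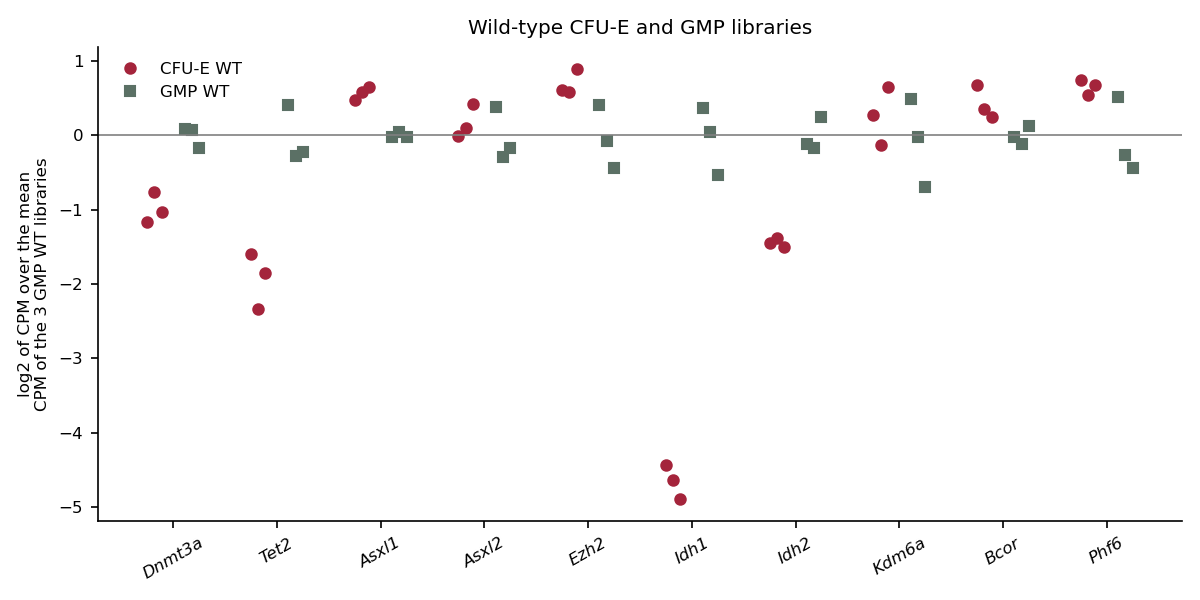
Levels of the 10 genes in WT CFU-E (circles) and WT GMP (squares), each library as the log2 of its CPM over the mean of the 3 GMP WT libraries (vertical axis). Idh1, Idh2, Tet2 and Dnmt3a lie below every GMP library in all 3 CFU-E libraries, Idh1 by the widest margin (log2 difference -4.63).

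The order held when KO libraries were placed on the same scale. Over the 7 CFU-E and 7 GMP libraries of both genotypes, Idh1 spanned 5.19 to 15.8 CPM in CFU-E and 70.6 to 186.2 CPM in GMP, and Idh2 spanned 106.0 to 149.3 CPM in CFU-E and 187.2 to 351.4 CPM in GMP. Tet2 spanned 4.59 to 8.81 CPM in CFU-E and 21.1 to 58.1 CPM in GMP, Dnmt3a 35.6 to 51.8 CPM in CFU-E and 70.0 to 145.1 CPM in GMP, and Asxl1 123.4 to 155.6 CPM in CFU-E and 77.8 to 101.2 CPM in GMP. These 5 genes separated the populations whatever the genotype. Asxl2 and Kdm6a overlapped already among WT libraries, and Ezh2, Bcor and Phf6 overlapped once KO libraries were included. The share of all genes that separated on this scale was not computed, and the WT libraries are those compared above. Within each population KO and WT overlapped on this scale for 4 of these 5 genes, Idh1 in CFU-E being the exception (7.50 to 15.8 CPM in KO and 5.19 to 7.13 CPM in WT).

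Ezh2 and Phf6 had the same order of group means, CFU-E WT, CFU-E KO, GMP KO and GMP WT from high to low. For Ezh2 only the top pair of neighbours did not overlap, CFU-E KO at 370.7 to 442.1 CPM and CFU-E WT at 445.3 to 574.4 CPM, and for Phf6 only the middle pair, CFU-E KO at 44.3 to 65.8 CPM and GMP KO at 39.8 to 42.2 CPM. Bcor was highest in GMP KO, then CFU-E KO, CFU-E WT and GMP WT, and of these neighbours only CFU-E WT (30.2 to 40.7 CPM) and GMP WT (22.5 to 27.4 CPM) did not overlap. Asxl2 and Kdm6a were also highest in GMP KO, followed by CFU-E WT, and all neighbours in their orders overlapped.

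RefSeq promoters of build GRCm38.p6 (250 bases before to 50 after the start) matched 9 of the 10 genes, all but Phf6, with 13 entries; the counts themselves were made on mm9, per the submitters' processing notes. The promoters of the 2 isocitrate dehydrogenases, lower in CFU-E, and of Ezh2, higher there, are shown because they are the 3 that hold a CCAAT box, the site read by the NF-Y factor. Each is written 5′ to 3′ on the gene's minus strand, with the letters CCAAT, or ATTGG where the box lies on the other strand, in capitals.
Idh1 (chr1:65186430-65186729): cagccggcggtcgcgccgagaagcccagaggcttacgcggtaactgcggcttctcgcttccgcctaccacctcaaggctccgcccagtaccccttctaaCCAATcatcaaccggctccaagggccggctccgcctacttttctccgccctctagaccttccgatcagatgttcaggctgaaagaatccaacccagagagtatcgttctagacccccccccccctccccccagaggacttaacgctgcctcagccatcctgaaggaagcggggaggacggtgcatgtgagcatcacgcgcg
Idh2 (chr7:80115301-80115600): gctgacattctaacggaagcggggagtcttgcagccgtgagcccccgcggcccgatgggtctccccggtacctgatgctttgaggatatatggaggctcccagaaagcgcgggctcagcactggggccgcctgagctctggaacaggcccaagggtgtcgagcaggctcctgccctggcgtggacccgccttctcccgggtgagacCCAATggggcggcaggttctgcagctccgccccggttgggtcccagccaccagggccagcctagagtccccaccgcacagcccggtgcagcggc
Ezh2 (chr6:47594981-47595280): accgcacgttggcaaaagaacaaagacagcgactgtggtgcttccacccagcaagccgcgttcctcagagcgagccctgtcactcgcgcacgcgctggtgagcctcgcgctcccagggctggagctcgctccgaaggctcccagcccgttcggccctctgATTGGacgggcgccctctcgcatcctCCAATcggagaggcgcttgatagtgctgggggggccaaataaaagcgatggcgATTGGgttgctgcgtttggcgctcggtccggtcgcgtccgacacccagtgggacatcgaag
The Idh1 entry shown and the Idh2 entry held 1 box each and the Ezh2 entry 3, while a second Idh1 entry (start 65179093) held 0. Of all 32851 RefSeq promoters, 37.4% hold CCAAT on either strand. The GC box GGGCGG, in 35.7% of promoters on either strand, stood 2 times in the Idh1 and Idh2 entries shown, 0 times in Ezh2, and 6, 7 and 2 times in the 3 entries of Dnmt3a. The ETS core AGGAAG, in 35.4% of promoters, stood 1 time in the first entries of Idh1, Asxl1 and Dnmt3a and in the second of Dnmt3a. The GATA motif AGATAA, in 11.2%, stood in none of the 13 entries. Over all entries 2 pairs of matches overlapped, both of the same motif, and a match describes the sequence only.

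In LSK, edgeR called 0 of the 10 genes between Stag2 KO and WT, where 0.0793% of 17664 genes were called; 1 of the 10 (Idh1) and 7.88% of all genes had an unadjusted p under 0.05, and DESeq2 called 1, again Idh1. Idh1 had 65.7, 66.1 and 69.5 CPM in LSK KO libraries, against 84.0, 99.4, 111.2 and 117.7 CPM in LSK WT libraries. Every KO library was below every WT library, and the KO libraries lay close together while WT spread widely. The 10 megakaryocyte markers, all detected, also separated the genotypes (684.6 to 796.6 CPM in LSK KO and 453.7 to 580.8 CPM in LSK WT). The 10 late neutrophil markers overlapped (720.6 to 1752 CPM in LSK KO and 370.4 to 8620 CPM in LSK WT). WT 1, with the lowest late neutrophil sum, also had the lowest Idh1 level among WT libraries. The part of either list in the values of Idh1 was not tested. The mean was 67.1 ± 2.09 CPM in KO and 103.1 ± 14.8 in WT (log2 fold change -0.62 ± 0.136 SE, 95% interval -0.93 to -0.31, edgeR adjusted p = 0.212). DESeq2 gave -0.61 (adjusted p = 0.0207), edgeR without LSK WT 1 gave -0.71 (adjusted p = 0.0401), and edgeR without LSK WT 2 and WT 4 gave -0.53 (adjusted p = 0.480).

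Idh2 did not follow Idh1 in LSK, with 437.6, 450.1 and 455.3 CPM in KO and 448.4, 307.9, 419.1 and 342.7 CPM in WT (0.24 ± 0.154, edgeR adjusted p = 0.825). The count of Idh1 per count of Idh2 in the same library, which does not depend on scaling, was therefore 0.147 to 0.153 in LSK KO and 0.187 to 0.343 in LSK WT, without overlap. It was highest in WT 2 and WT 4 (0.323 and 0.343), which also had high late neutrophil marker sums (8620 and 4596 CPM). WT 1 and WT 3 held 0.187 and 0.265. A link to these markers was not tested. In GMP the same ratio was 0.434 ± 0.0755 in KO and 0.538 ± 0.216 in WT (SD, n = 4 and 3), and in CFU-E 0.0840 ± 0.0340 in KO and 0.0561 ± 0.00835 in WT (n = 4 and 3), with overlap in both. The ratios are given as a description, with no test.

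**Figure D2:**
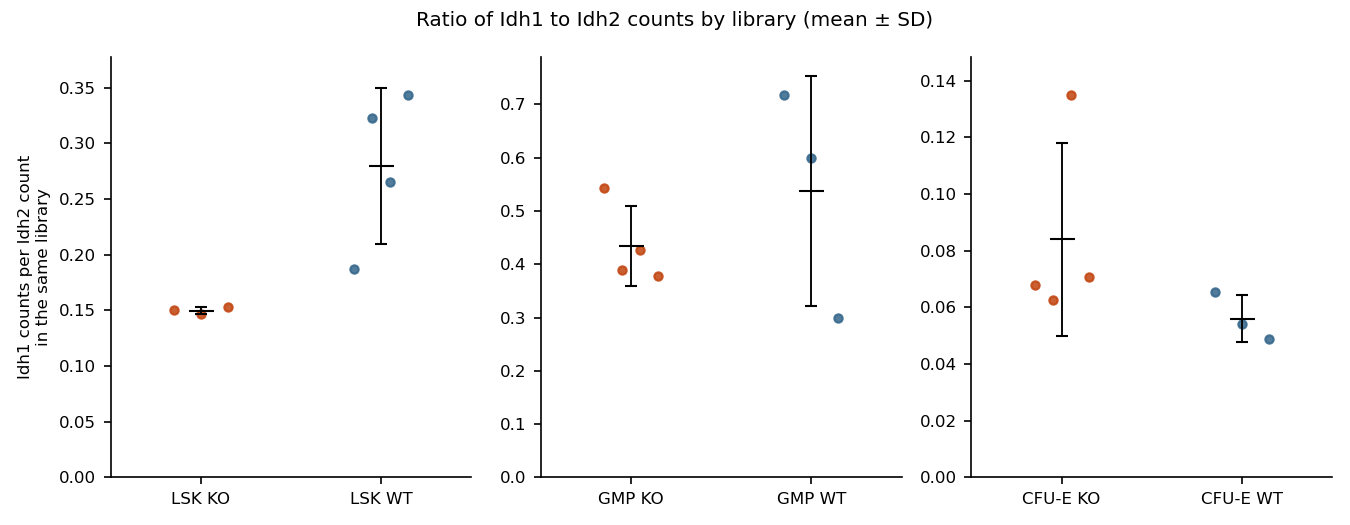
Counts of Idh1 per count of Idh2 in each library (vertical axes, one scale per population), KO left of WT, with group mean ± SD. The 3 LSK KO libraries sit between 0.147 and 0.153, below all 4 LSK WT libraries (0.187 to 0.343), whereas KO and WT overlap in GMP and CFU-E.

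Among the DNA methylation enzymes, Dnmt3a had 110.2, 133.5 and 123.9 CPM in LSK KO and 125.9, 69.3, 121.8 and 70.8 CPM in LSK WT (0.34, 95% interval -0.20 to 0.87, edgeR adjusted p = 0.849). The WT libraries formed a high pair, WT 1 and WT 3, that matched KO, and a low pair, WT 2 and WT 4. Tet2 was 30.4 to 37.7 CPM in KO and 28.5 to 36.9 CPM in WT (0.09, interval -0.25 to 0.43, adjusted p = 0.915).

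Asxl1 and Bcor showed the same pairs of WT libraries. Asxl1 had 73.3, 92.0 and 98.4 CPM in LSK KO and 105.4, 52.0, 82.9 and 49.9 CPM in LSK WT (0.28, interval -0.33 to 0.88, edgeR adjusted p = 0.886). Bcor had 56.0, 73.8 and 71.8 CPM in KO and 85.2, 29.6, 55.5 and 32.2 CPM in WT (0.41, interval -0.37 to 1.19, edgeR adjusted p = 0.882). In both genes WT 2 and WT 4 were the lowest libraries, as they were for Dnmt3a and Idh2. The 10 late neutrophil markers, all detected in both genotypes, summed to 720.6, 1036 and 1752 CPM in LSK KO. They summed to 370.4, 8620, 1475 and 4596 CPM in LSK WT 1 to 4, so the same WT libraries were the highest there. WT 2 and WT 4 were also the shallowest LSK libraries, with 22813333 and 23528077 counts. Neither the part of these markers nor that of depth was tested. Without WT 2 and WT 4, the log2 fold change was -0.0022 for Dnmt3a, -0.09 for Asxl1 and -0.05 for Bcor, in place of positive values. As WT 2 and WT 4 were the lowest libraries in these genes, leaving them out lowers the value by the choice itself.

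Asxl2 showed no such pairs. It was 66.7 to 74.2 CPM in KO and 61.9 to 65.8 CPM in WT, without overlap but with a difference of 1.11-fold (0.15, interval -0.08 to 0.38, edgeR adjusted p = 0.834). Groups without overlap were 2 of the 10 genes, Idh1 and Asxl2, beside 7.89% of all genes. Ezh2 had 142.4, 137.9 and 140.8 CPM in KO and 157.0, 104.2, 137.8 and 129.3 CPM in WT (0.09, interval -0.24 to 0.42, adjusted p = 0.915), and -0.056 without WT 2 and WT 4. Kdm6a had 93.8, 74.7 and 83.2 CPM in KO and 84.9, 61.0, 67.6 and 63.4 CPM in WT. WT 2 and WT 4 were again the lowest WT libraries in both genes. Kdm6a and Phf6, X-linked like Bcor, gave 0.28 (interval -0.06 to 0.61, edgeR adjusted p = 0.740) and 0.18 (interval -0.22 to 0.58, edgeR adjusted p = 0.886). The median over the 10 genes was 0.21, beside 0.0044 for all genes.

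**Figure D3:**
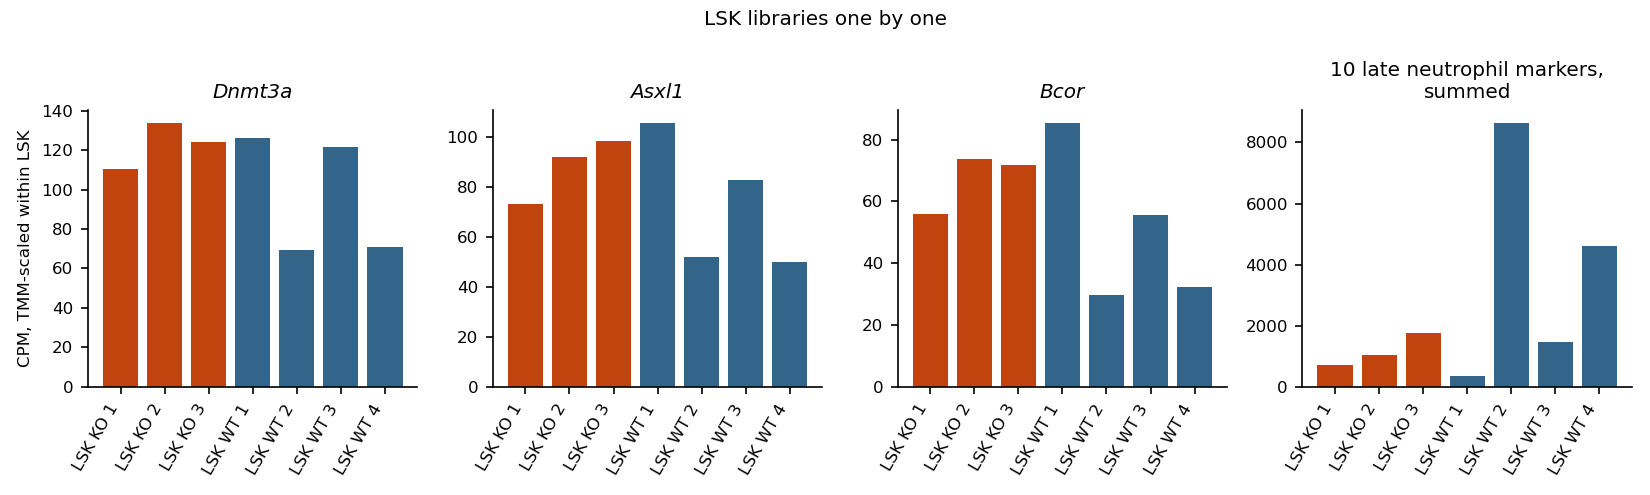
Dnmt3a, Asxl1 and Bcor in each LSK library (bars, CPM), beside the summed CPM of 10 late neutrophil markers, KO (orange) left of WT (blue). WT 2 and WT 4 are the lowest bars in the 3 genes (Bcor 29.6 and 32.2 CPM) and the highest in the marker sum (8620 and 4596 CPM). A link between the 2 was not tested.

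In GMP, where 1.45% of 9969 genes were called, edgeR called 0 of the 10 genes and DESeq2 0, while 4 of the 10 (Bcor, Asxl2, Dnmt3a and Tet2) and 17.9% of all genes had an unadjusted p under 0.05. Positive log2 fold changes were found for 8 of the 10, with a median of 0.41 beside 0.015 for all genes. Several of these values were smaller without KO 4, as given below. Bcor, the PRC1.1 scaffold, came nearest to a call, with 52.8, 35.1, 30.8 and 45.7 CPM in GMP KO and 20.8, 19.5 and 23.8 CPM in GMP WT. Every KO library was above every WT library, KO 1 and KO 4 the most. Leaving out KO 1 and KO 4 therefore lowers the value by the choice itself. The means were 41.1 ± 9.96 CPM in KO and 21.4 ± 2.21 in WT (SD, n = 4 and 3; log2 fold change 0.92 ± 0.252 SE, 95% interval 0.39 to 1.46, edgeR adjusted p = 0.0867). Without both KO 1, the shallowest library, and KO 4 the log2 fold change was 0.64 (adjusted p = 0.328), with KO 1 alone left out 0.80 (adjusted p = 0.155), with KO 4 alone left out 0.87 (adjusted p = 0.0726), and with counts thinned to the shallowest library 0.60 (adjusted p = 0.409), while edgeR with no filter on low counts gave 0.89 (adjusted p = 0.0434).

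Asxl2 had 112.2, 98.4, 112.9 and 208.0 CPM in GMP KO and 95.8, 60.6 and 67.6 CPM in GMP WT. All KO libraries exceeded all WT libraries, but the lowest KO and the highest WT library were close, and KO 4 lay far above the other 3. The log2 fold change was 0.83 ± 0.280 (95% interval 0.24 to 1.43, edgeR adjusted p = 0.152), and 0.51 (adjusted p = 0.443) without KO 1 and KO 4; with no filter it was 0.80 (adjusted p = 0.0480). Bcor and Asxl2 were the 2 of 10 genes without overlap, beside 15.8% of all genes. Asxl1, its paralog in the same complex, had 72.8, 80.1, 77.4 and 98.4 CPM in KO and 77.7, 82.8 and 80.8 CPM in WT (0.03, interval -0.40 to 0.47, edgeR adjusted p = 0.945). The count of Asxl1 per count of Asxl2 was 0.656 ± 0.141 in GMP KO and 1.12 ± 0.284 in GMP WT (SD, n = 4 and 3), given with no test, with highest and lowest values of 0.814 in KO and 0.812 in WT that overlap narrowly.

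The DNA methylation enzymes had higher means in GMP KO that overlapped WT. Dnmt3a had 92.9, 69.2, 89.3 and 141.0 CPM in KO and 70.3, 70.4 and 60.9 CPM in WT (0.55, interval 0.02 to 1.07, edgeR adjusted p = 0.265). Tet2 had 35.7, 25.3, 26.5 and 56.5 CPM in KO and 29.5, 18.4 and 19.6 CPM in WT (0.67, interval 0.02 to 1.32, edgeR adjusted p = 0.266). KO 4 was the highest KO library in both genes, as it was in Asxl1, Asxl2, Ezh2, Kdm6a and Phf6. Without KO 4 the log2 fold change was 0.33 for Dnmt3a, 0.35 for Tet2, 0.54 for Asxl2 and 0.33 for Kdm6a. It was 0.25 for Phf6, 0.08 for Ezh2 and -0.05 for Asxl1. As KO 4 was the highest KO library in these genes, leaving it out lowers the value by the choice itself. KO 4 also had the highest Stag2 level of the KO libraries, 150.2 CPM, against 143.1 in WT 2 and 98.3 in WT 3.

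For Idh1 the order was turned, with 131.5, 90.5, 91.9 and 68.7 CPM in GMP KO and 165.1, 133.0 and 91.4 CPM in GMP WT, KO 4 lowest and the groups overlapping (-0.45, interval -1.0 to 0.10, edgeR adjusted p = 0.361). Idh2 was 182.0 to 242.3 CPM in KO and 222.1 to 306.0 CPM in WT (-0.21, interval -0.67 to 0.24, adjusted p = 0.605). Ezh2 was 248.9 to 430.6 CPM in KO and 193.9 to 337.4 CPM in WT (0.27, interval -0.27 to 0.81, adjusted p = 0.582). Kdm6a had 28.2, 27.6, 27.6 and 47.7 CPM in KO and 30.9, 21.8 and 14.04 CPM in WT (0.56, interval -0.08 to 1.20, adjusted p = 0.332), and Phf6 was 36.4 to 40.6 CPM in KO and 24.1 to 45.0 CPM in WT (0.27, interval -0.27 to 0.80, adjusted p = 0.584).

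The 10 late neutrophil markers, all detected in both genotypes, summed to 74614 to 121988 CPM in KO and 156060 to 206886 CPM in WT, without overlap. The 10 megakaryocyte markers, also all detected, summed to 103.8 to 130.2 CPM in KO and 74.2 to 102.0 CPM in WT, again without overlap. The 10 stem and multipotent progenitor markers summed to 578.7 CPM in KO 4, against 262.3 to 336.6 CPM in the other 3 KO libraries and 262.6 to 268.1 CPM in WT. The 10 granulocyte and monocyte progenitor markers were lowest in KO 4, at 22164 CPM, within ranges of 22164 to 46005 CPM in KO and 33915 to 55727 CPM in WT. Their part in the values of Bcor, Asxl2, Dnmt3a and Tet2 was not tested.

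**Figure D4:**
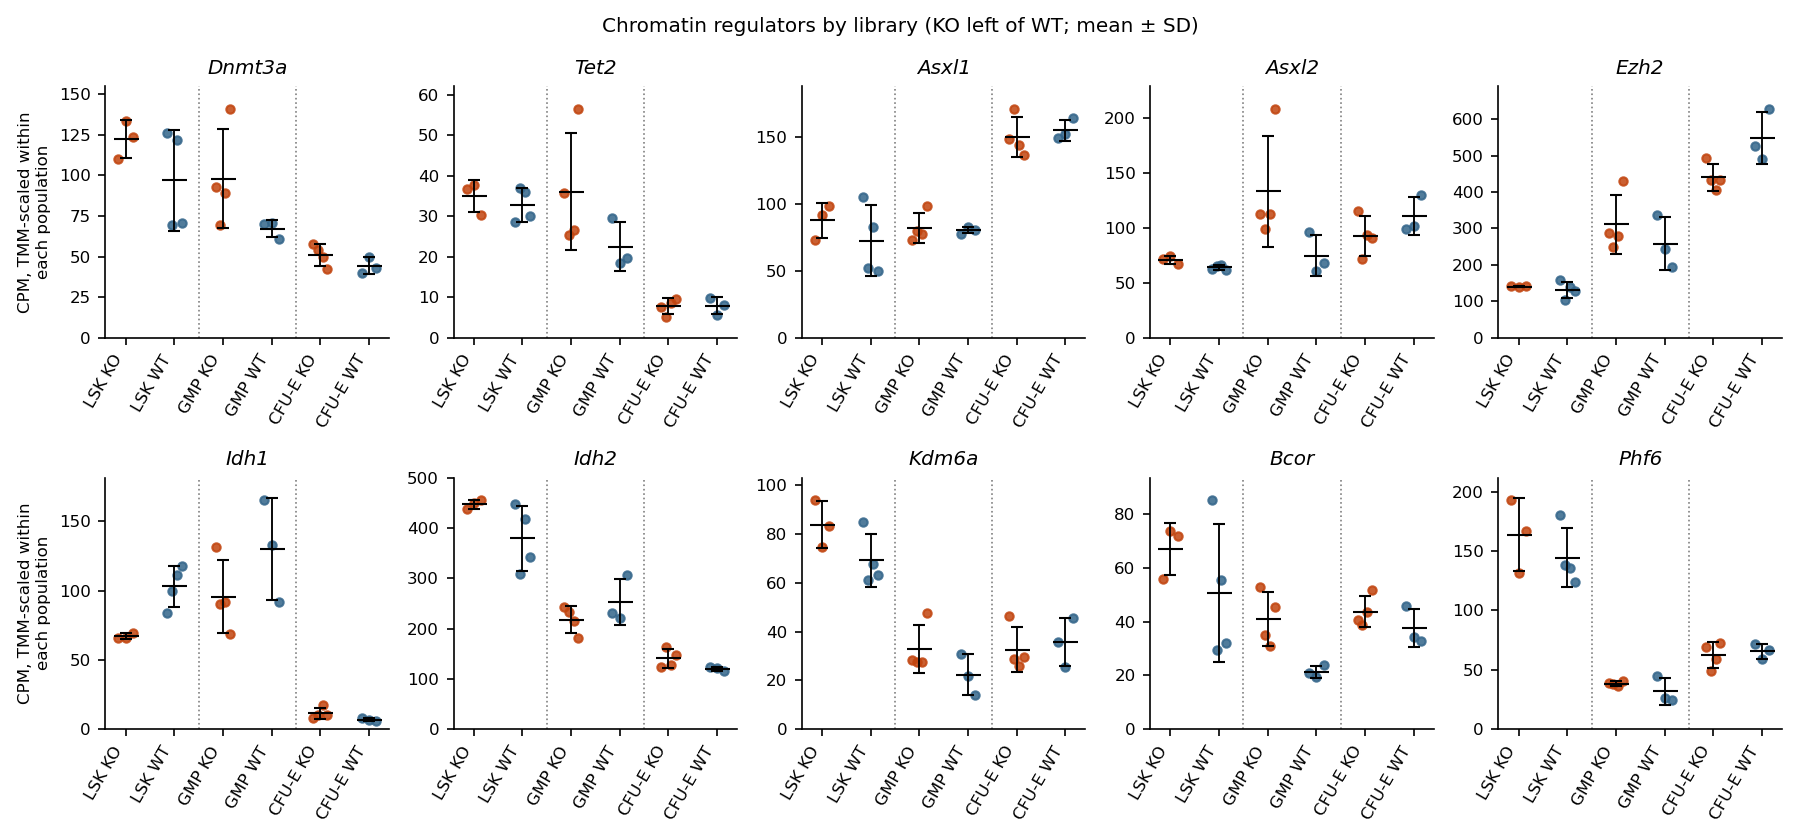
CPM of the 10 genes in every library (points), scaled by TMM within each population, KO (orange) left of WT (blue), with group mean ± SD; LSK levels come from another library kit and are not comparable with the rest. Idh1 in LSK (65.7 to 69.5 CPM in KO, 84.0 to 117.7 in WT) and Bcor in GMP (30.8 to 52.8 CPM in KO, 19.5 to 23.8 in WT) are separated by genotype, and GMP KO 4 is the highest KO point for Asxl2 (208.0 CPM).

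In CFU-E, where 1.06% of 10170 genes were called, edgeR called 0 of the 10 genes and DESeq2 0, while 1 (Ezh2) and 9.82% of all genes had an unadjusted p under 0.05. Signs were mixed, 4 positive and 6 negative, with a median of -0.042 beside 0.0043 for all genes. Ezh2 had 492.5, 432.0, 405.9 and 433.4 CPM in CFU-E KO and 525.4, 491.7 and 628.7 CPM in CFU-E WT. The lowest WT library fell just under the highest KO library, and WT 3 stood above all others. The means were 441.0 ± 36.6 CPM in KO and 548.6 ± 71.4 in WT (SD, n = 4 and 3; log2 fold change -0.32 ± 0.144 SE, 95% interval -0.63 to -0.01, edgeR adjusted p = 0.473), with -0.06 among flow cell A libraries and -0.57 among those of B.

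Idh1, already low in erythroid progenitors, had 8.36, 10.3, 17.3 and 10.4 CPM in CFU-E KO and 8.01, 6.62 and 5.68 CPM in CFU-E WT. No KO library fell within the WT range, but KO 1 lay only just above WT 1, and KO 3 was the highest. The log2 fold change was 0.67 ± 0.357 (interval -0.10 to 1.44, edgeR adjusted p = 0.598), with 0.18 in flow cell A and 1.15 in B. Idh2 had 123.1, 164.2, 128.5 and 146.6 CPM in KO and 122.7, 122.6 and 116.1 CPM in WT. Its lowest KO library exceeded its highest WT library by less than 1 CPM (0.18, interval -0.16 to 0.51, edgeR adjusted p = 0.790; -0.0098 in flow cell A and 0.33 in B). Idh1 and Idh2 were the 2 of 10 genes without overlap, beside 11.8% of all genes; scaled together with GMP, Idh2 overlapped.

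The other 7 genes overlapped between genotypes in CFU-E. Dnmt3a was 42.3 to 57.7 CPM in KO and 40.1 to 50.0 CPM in WT (0.27, interval -0.11 to 0.65, edgeR adjusted p = 0.682; 0.34 and 0.19 within flow cells A and B). Tet2 was 5.04 to 9.58 CPM in KO and 5.64 to 9.90 CPM in WT (-0.06, interval -0.82 to 0.71, adjusted p = 0.982; -0.04 and -0.08 within the flow cells). Bcor gave 0.23 (interval -0.20 to 0.67, adjusted p = 0.788; 0.01 and 0.43 within the flow cells).

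Asxl1 gave -0.07 (interval -0.38 to 0.23, edgeR adjusted p = 0.920; -0.04 in flow cell A and -0.13 in B). Asxl2 gave -0.23 (interval -0.62 to 0.16, adjusted p = 0.752), Kdm6a -0.09 (interval -0.62 to 0.45, adjusted p = 0.952) and Phf6 -0.03 (interval -0.42 to 0.36, adjusted p = 0.982). The sign of these 3 genes differed between flow cells: within A the values were 0.18, 0.58 and 0.08, and within B -0.62, -0.70 and -0.15. Flow cell A holds a single CFU-E KO library, KO 1, and flow cell B a single WT library, WT 3, so the values within each rest on that library. Of the marker lists, the 10 megakaryocyte genes summed to 561.7 to 1214 CPM in KO and 149.1 to 344.4 CPM in WT, and the 10 erythroid progenitor genes to 7898 to 8593 CPM in KO and 6615 to 7728 CPM in WT, without overlap in either; their part in the 10 genes' values was not tested.

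**Figure D5:**
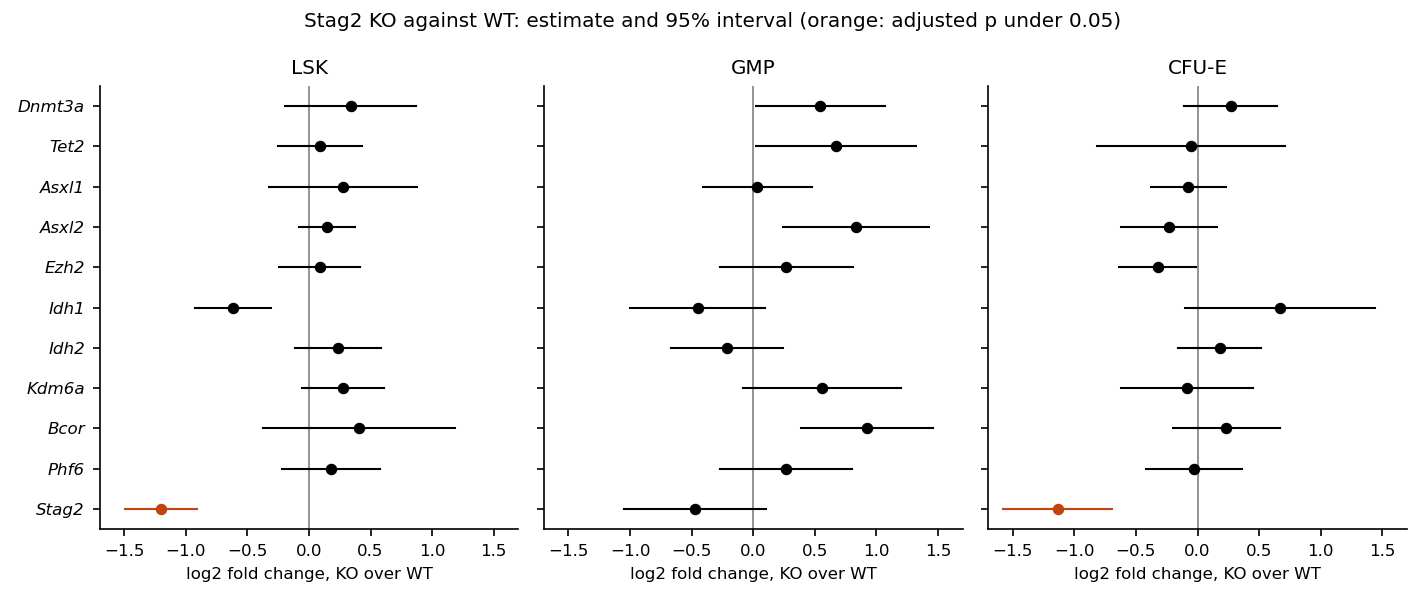
Log2 fold change of KO over WT (horizontal axis) with its 95% interval for the 10 genes and Stag2 in each population, orange where the edgeR adjusted p is under 0.05. Only Stag2 is orange, in LSK (-1.20) and CFU-E (-1.13); the intervals of Idh1 in LSK (-0.93 to -0.31) and of Bcor in GMP (0.39 to 1.46) lie clear of 0 without passing the adjustment over all genes.

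The difference of the KO effect between populations was tested directly. In the contrasts with LSK, the population, the library kit and the sex pattern of the libraries change together and cannot be told apart. Of the 10 genes edgeR called 0 in each of the 3 contrasts. For CFU-E minus GMP, 0.445% of 11006 genes were called, 2 of the 10 genes (13.6% of all genes) had an unadjusted p under 0.05, DESeq2 called 0 of the 10, and the smallest adjusted p was 0.258, for Asxl2. For LSK minus GMP, 0% of 16288 genes were called by edgeR and 71 by DESeq2, which called 0 of the 10; 0 of the 10 genes (10.6% of all genes) had an unadjusted p under 0.05, and the smallest adjusted p was 0.478, for Idh2. For LSK minus CFU-E, 0.0425% of 16474 genes were called, 1 of the 10 (7.40% of all genes) had an unadjusted p under 0.05, the smallest adjusted p was 0.289, for Idh1, and DESeq2 called 1, the same Idh1. Idh1 was the gene with opposite separation in 2 populations, all KO libraries below WT in LSK and, narrowly, all above WT in CFU-E. In CFU-E the lowest KO library was at 8.36 CPM and the highest WT library at 8.01 CPM, and the ratio of Idh1 to Idh2 overlapped. The test of the difference between LSK and CFU-E did not pass in edgeR.

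The complexes and pathways around these proteins were followed through 7 lists holding 73 genes, all of them in the table. In LSK and in GMP, edgeR called 0 genes of any list between KO and WT. At an unadjusted p under 0.05 stood 1 gene of the NuRD list and 0 of the other 6 in LSK, beside 7.88% of all genes. In GMP they were 1 of 12 tested DNA methylation genes, 3 of 10 in isocitrate and alpha-ketoglutarate metabolism and 3 of 10 PRC2 partners. They also were 1 of 8 PR-DUB partners, 3 of 10 PRC1.1 partners, 3 of 11 COMPASS-family genes and 0 of 10 in NuRD. The share of all genes was 17.9%.

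In CFU-E, 1 of the 73 genes listed was called, lower in KO. Of all genes tested there, 1.06% were called, 0.708% of them all being lower, and the 1 call is to be read against those shares. Chd3, an ATP-dependent remodeller of the NuRD complex that Phf6 binds, had 15.3, 28.4, 18.6 and 16.5 CPM in CFU-E KO and 36.0, 33.5 and 44.9 CPM in CFU-E WT. Chd3 fell in KO, with every KO library below every WT library (19.7 ± 5.96 CPM in KO and 38.1 ± 6.0 in WT, SD, n = 4 and 3; log2 fold change -1.12 ± 0.227 SE, edgeR adjusted p = 0.0287). The value was -1.20 in flow cell A, which holds 1 CFU-E KO library, and -1.08 in flow cell B, which holds 1 CFU-E WT library, and the call was lost without CFU-E WT 3 (0.484), WT 1 (0.0597), KO 1 (0.120) or KO 3 (0.0809). The other 9 NuRD genes tested were not called.

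Between the WT populations, each partner list is given beside 25.0% of all genes called higher and 27.3% called lower in CFU-E, with no test between lists. The NuRD list leaves out Rbbp4, shared with PRC2 and listed there, which was called 1.77-fold lower in CFU-E (edgeR adjusted p = 0.0146). In the NuRD list itself, 6 of 10 genes were called higher in CFU-E and 0 lower, with a list median of 0.58 beside 0.032 for all genes. Its Mta subunits led: Mta3 averaged 57.3 ± 8.37 CPM in CFU-E WT and 11.6 ± 2.46 in GMP WT (4.96-fold, edgeR adjusted p = 1.56e-07), Mta1 averaged 156.1 ± 34.8 CPM in CFU-E WT and 69.0 ± 28.7 in GMP WT (2.27-fold, adjusted p = 0.000881), and Mta2 averaged 164.4 ± 13.2 CPM in CFU-E WT and 85.3 ± 27.5 in GMP WT (1.93-fold, adjusted p = 0.00145). Phf6, which binds this complex, was itself 1.57-fold higher in CFU-E WT.

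Around the isocitrate dehydrogenases, 5 of 10 genes were called higher in CFU-E WT and 1 lower (median 0.55). Idh3a, the catalytic subunit of the NAD-dependent mitochondrial enzyme, averaged 87.2 ± 8.28 CPM in CFU-E WT and 39.3 ± 7.27 in GMP WT (2.22-fold higher, edgeR adjusted p = 0.000132). Dlst, a subunit of the alpha-ketoglutarate dehydrogenase complex, averaged 226.9 ± 21.9 CPM in CFU-E WT and 100.8 ± 23.0 in GMP WT (2.25-fold higher, edgeR adjusted p = 7.98e-05). Glud1, which makes alpha-ketoglutarate from glutamate, was 69.9 ± 7.17 CPM in CFU-E WT and 225.7 ± 50.0 in GMP WT (3.23-fold lower, edgeR adjusted p = 8.11e-07). The 2 NADP-dependent enzymes and Glud1 were thus lower in CFU-E while Idh3a and Dlst were higher.

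Among PRC2 partners of Ezh2, 0 of 10 were called higher and 3 lower in CFU-E WT (median -0.056), so the catalytic subunit was higher without a called rise in its partners. The accessory subunit Phf19 averaged 2.95 ± 1.28 CPM in CFU-E WT and 10.7 ± 2.62 in GMP WT (3.57-fold lower, edgeR adjusted p = 0.000600), Mtf2, its relative, was 1.71-fold lower (adjusted p = 0.00535), and the histone chaperone Rbbp4, shared with NuRD, was 1.77-fold lower (adjusted p = 0.0146). For DNA methylation and demethylation, 2 of 13 were called higher and 1 lower (median -0.071). Mbd2, a methyl-CpG binding protein, was 59.5 ± 14.2 CPM in CFU-E WT and 19.3 ± 10.1 in GMP WT (3.11-fold higher, edgeR adjusted p = 0.000131). Zbtb4, which also binds methylated DNA, was at 3.4 to 4.49 CPM in CFU-E WT and 0 to 1.43 CPM in GMP WT (adjusted p = 0.00564), and Tet1, a paralog of Tet2, was 2.34-fold lower in CFU-E (4.65 ± 1.68 CPM in CFU-E WT and 11.1 ± 4.31 in GMP WT, adjusted p = 0.0118).

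Of the 8 PR-DUB partners tested, 1 was called higher and 2 lower (median 0.065). Foxk1, a forkhead factor that recruits the complex, was 2.46-fold lower in CFU-E WT (edgeR adjusted p = 0.00235), Mbd5 2.10-fold lower (adjusted p = 0.00583), and Hcfc1, a cofactor bound by Bap1, 1.48-fold higher (adjusted p = 0.0178). Of 10 PRC1.1 partners of Bcor, 3 were called in each direction (median -0.40). Bcl6, the transcriptional repressor for which Bcor is a corepressor, was 1.24 ± 0.226 CPM in CFU-E WT and 22.0 ± 8.85 in GMP WT (17.4-fold lower, edgeR adjusted p = 2.96e-08), the deubiquitinase Usp7 was 1.66-fold higher (adjusted p = 0.00405), and Yaf2 1.72-fold lower (adjusted p = 0.00649). Of 11 COMPASS-family genes listed beside Kdm6a, 3 were called higher and 1 lower (median 0.21). The 3 were Wbp7, now called Kmt2b (2.13-fold, edgeR adjusted p = 0.000588), Paxip1 (1.68-fold, 0.0148) and Mll1, now called Kmt2a (1.51-fold, 0.0148). Leaving out CFU-E WT 3 or GMP WT 2 ended the calls of Tet1 and Mll1, leaving out GMP WT 2 or CFU-E WT 2 that of Hcfc1, GMP WT 3 or CFU-E WT 2 that of Paxip1, and GMP WT 1 or CFU-E WT 2 that of Rbbp4, with adjusted p between 0.0501 and 0.116.

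Over the 14 CFU-E and GMP libraries, other genes were ranked by how closely their log2 CPM, centred on the gene's mean, tracked each of the 10, as a root mean square difference among about 5877 genes with a mean of at least 20 CPM. Idh1 was followed most closely by the beta 2 integrin gene Itgb2 (0.30, where the median gene was at 2.0) and by Tes (0.31). Dnmt3a was nearest to Pctp (0.18) and Vps36 (0.19), Tet2 to Rsbn1 (0.22) and Col4a3bp (0.23), and Idh2 to Tmem63a (0.14) and Mgrn1 (0.15). Ezh2 was nearest to Sbno1 and Arglu1 (0.11 each), Phf6 to Xpo1 (0.11) and to the NuRD subunit Hdac2 (0.12), and Asxl1 to Hsp90ab1 (0.10) and Ubap2l (0.11). Asxl2 was nearest to Luc7l2 (0.14) and Zc3h11a (0.15), Kdm6a to Arid4a (0.13) and Dek (0.15), and Bcor to Zbtb43 (0.24) and Sos1 (0.25). The distances share libraries and depth and are a description of these libraries.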

How the data were processed

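Deposited values were raw whole-number counts per gene of 21 libraries (30733 genes), not normalized by the authors. Build mm9 with STAR 2.4, HTSeq 0.6.1 and DESeq2 was used per the submitters' processing notes. No source used here states the annotation or strand setting, so genes that overlap or lie antisense are uncertain. Groups came from the labels, which do not say that replicates are separate animals, so a p-value covers only library-to-library spread, possibly technical. No pair of libraries agreed within sampling noise (chi-square per degree of freedom at least 4.03).

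Each comparison was fitted over all genes in edgeR 4.0.16 (R 4.3.3, limma 3.58.1): filterByExpr (minimum count 10, minimum total 15), TMM, quasi-likelihood F test, Benjamini-Hochberg adjustment, threshold 0.05. A flow cell term was used where CFU-E KO and WT were compared; by the descriptions, flow cell B (a name given here) held 4 libraries, CFU-E WT 3 with CFU-E KO 2, 3 and 4, and flow cell A the other CFU-E and all GMP libraries. Contrasts were KO against WT in each population, WT CFU-E against WT GMP, and the interaction for each pair of populations. Alternatives were DESeq2 1.42.0, its size factors, no filter, a replicate block, each library left out, libraries that stand apart left out, thinned counts in GMP, and flow cells apart.

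The 10 genes, the 7 partner lists and the 8 marker lists were chosen with earlier results of these data known. The 10 genes and Stag2 were always named, with up to 4 partners per list called in a KO comparison and 3 in the WT comparison, by smallest p, and the 2 nearest genes by likeness (pseudocount 1 CPM), leaving out symbols of predicted genes. In simulated counts edgeR called 13.4% of genes changed 2-fold in LSK (17308 genes run), 36.6% in GMP (9777), 39.5% in CFU-E (9982) and 60% between WT populations (10116). For 1.5-fold the shares were 1.3%, 3.64%, 14.8% and 8.06%. Only a small part of the genes run was changed in each simulation. Between the real WT populations 52.4% of genes were called, so the adjustment was less strict there. The simulated shares for that comparison therefore do not describe its power.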

Additional observations from a re-analysis of the deposited data

Results flagged for a closer look

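Among 30 sets of 4 libraries examined (10 genes in LSK WT, GMP KO and CFU-E KO), 2 held a library whose gap to the nearest other, over the whole range, exceeded Dixon's 95% critical value, where chance gives about 1 in 20. Both were GMP KO 4. Asxl2 was at 208.0 CPM in that library, against 98.4 to 112.9 CPM in the other 3 GMP KO libraries. Kdm6a was at 47.7 CPM there, against 27.6 to 28.2 CPM in the other 3.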

How the results depend on the processing

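Of the 120 values of the 10 genes under 12 alternatives in LSK, 113 kept direction and side of the threshold, 2 passed it (Idh1, above) and 5 turned. In GMP 124 of 130 kept both, 3 passed and 3 turned, in CFU-E 130 of 140 kept both and 10 turned, and between WT populations 97 of 110 kept both and 13 lost the call with no reversal; the causes were not tested. Turned values without LSK WT 2 and WT 4 were -0.0022 for Dnmt3a, -0.086 for Asxl1, -0.056 for Ezh2 and -0.050 for Bcor. WT 2 and WT 4 were the lowest WT libraries in each of these genes, so the fall follows from the choice. In GMP without KO 1 and KO 4, Asxl1 was at -0.014. In flow cell A, CFU-E values turned for Asxl2 (0.18), Idh2 (-0.0098), Kdm6a (0.58) and Phf6 (0.084). With each library left out, the turned genes spanned -0.019 to 0.18 (Ezh2, LSK), -0.047 to 0.092 (Asxl1, GMP), and in CFU-E -0.21 to 0.11 (Tet2), -0.62 to 0.19 (Asxl2), -0.70 to 0.59 (Kdm6a) and -0.15 to 0.10 (Phf6).

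All genes called numbered 38 in LSK, 601 in GMP, 333 in CFU-E, and 254, 12 and 32 in the interactions CFU-E minus GMP, LSK minus GMP and LSK minus CFU-E with no filter, against 14, 145, 108, 49, 0 and 7 as reported; DESeq2 called 338, 262, 164, 141, 71 and 88. With no filter 2 of the 10 genes were called in GMP; DESeq2 called 1 in LSK and 1 in LSK minus CFU-E. Without LSK WT 2 and WT 4, 1 gene was called in LSK, and thinned counts left 40 in GMP. With no flow cell term the counts were 234 in CFU-E, 81 for CFU-E minus GMP and 18 for LSK minus CFU-E. Between WT populations, 4 of the 10 genes were called in flow cell A. With each library left out, genes called spanned 0 to 123 in LSK (123 without WT 1), 38 to 211 in GMP, 22 to 143 in CFU-E (22 without WT 3), 2 to 72 for CFU-E minus GMP, 0 to 8 for LSK minus GMP and 1 to 24 for LSK minus CFU-E; of the 10 genes, 0 to 1 in LSK and 4 to 7 between WT populations.

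Replicate numbers gave no steady pairing of the libraries. Same-numbered deviations correlated at 0.0855, 0.0466 and 0.0355 in LSK and at -0.164, 0.175 and 0.252 in GMP. The values were 0.199, 0.271 and -0.194 in CFU-E, and -0.115, -0.0786 and -0.175 between WT populations. Differently numbered libraries were not measured for reference, so a pairing is neither shown nor excluded. With the replicate block, 0 genes were called in LSK, 325 in GMP, 31 in CFU-E and 0 for LSK minus CFU-E; 1 of the 10 was called in GMP, Bcor (0.84, edgeR adjusted p = 0.0397), and Asxl1 in GMP turned to -0.067. The block ended the calls of Stag2 in LSK (-1.22, edgeR adjusted p = 0.220) and CFU-E (-1.08, 0.0804) and of Chd3 in CFU-E (-1.25, 0.117). Depth limits what can be seen in GMP KO, where the shallowest library held 1250683 counts.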
